A study of Mus musculus with 12 samples.

Results

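Vitamin D receptor signalling and duodenal calcium transport were followed through 7 genes in mice given corticosterone (CORT), the main glucocorticoid of rodents. The genes were Trpv6, S100g, Atp2b1, Vdr, Casr, Cyp2r1 and Cyp24a1, chosen by name from this pathway, and all 7 were found among the 55416 genes that each of the expression tables lists. The values are the deposited TPM, transcript abundances scaled for gene length and to a fixed total in each library, so the read depth behind them is unknown. Male C57BL6/J mice, 8 weeks old at the start, received CORT at 40 mg/kg or vehicle (Veh) by daily subcutaneous injection for 8 weeks. RNA-seq libraries were made from about 50 mg of liver or of small intestine, which the study's methods give as duodenum, with 3 libraries per treatment and tissue and 12 in all. The labels call the libraries biological replicates and say no more, so p-values measure only the spread between these libraries.

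Calcium crosses the duodenal epithelium in 3 steps when it is scarce in the diet. It enters from the lumen through the channel TRPV6, is carried through the cytosol by calbindin-D9k, the product of S100g, and leaves across the basolateral membrane through the plasma membrane calcium pump PMCA1, the product of Atp2b1. Calcitriol, the active form of vitamin D, acts through the vitamin D receptor (Vdr) to raise the genes of this route in the proximal intestine. CYP2R1 makes the first hydroxylation of vitamin D, mostly in liver, CYP24A1 breaks calcitriol down and is a classical VDR target, and CASR is the receptor that senses extracellular calcium.

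The promoters of the 3 transport genes are shown because, of the 7 genes, these varied most between duodenal libraries on the log2(TPM + 1) scale. They are from RefSeq on GRCm38.p6, run from 250 bases before to 50 bases after the annotated start, and are read 5′ to 3′ on the strand of the gene. The deposited values were made on another build, GRCm39, so these coordinates belong to the sequences alone. Promoters were found for 6 of the 7 genes, 7 promoters in all since Atp2b1 has a pair of starts, and Cyp24a1 was not matched. Capitals mark AGGTCA, the core of many nuclear receptor sites, on either strand in S100g and Trpv6, AGAACA, the core of glucocorticoid receptor sites, in Trpv6, TATAAA in S100g, and the GC box GGGCGG on either strand in Atp2b1. S100g lies at chrX:162964550-162964849, minus strand, Trpv6 at chr6:41636356-41636655, minus strand, and the first start of Atp2b1 at chr10:98914392-98914691, plus strand.
S100g: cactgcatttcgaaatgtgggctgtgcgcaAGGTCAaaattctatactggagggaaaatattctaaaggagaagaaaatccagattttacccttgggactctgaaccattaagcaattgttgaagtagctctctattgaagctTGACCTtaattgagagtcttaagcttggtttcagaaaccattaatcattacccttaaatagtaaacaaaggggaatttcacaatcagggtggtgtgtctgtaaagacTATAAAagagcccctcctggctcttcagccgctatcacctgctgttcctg
Trpv6: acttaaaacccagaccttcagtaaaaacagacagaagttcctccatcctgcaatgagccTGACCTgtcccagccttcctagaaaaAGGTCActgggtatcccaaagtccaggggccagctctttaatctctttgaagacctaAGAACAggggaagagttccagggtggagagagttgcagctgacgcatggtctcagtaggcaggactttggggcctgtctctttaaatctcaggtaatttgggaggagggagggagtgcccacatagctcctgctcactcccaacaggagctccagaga
Atp2b1 start 1: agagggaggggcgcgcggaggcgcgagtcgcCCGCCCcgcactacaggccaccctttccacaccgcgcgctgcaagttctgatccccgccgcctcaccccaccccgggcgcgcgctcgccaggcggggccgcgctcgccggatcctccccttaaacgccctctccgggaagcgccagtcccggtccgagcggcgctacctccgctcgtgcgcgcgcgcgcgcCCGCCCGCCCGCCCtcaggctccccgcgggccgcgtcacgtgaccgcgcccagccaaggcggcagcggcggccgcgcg

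AGGTCA occurred 2 times in the S100g promoter and 2 times in the Trpv6 promoter, and in none of the other 5. By comparison, 16.3% of 32851 RefSeq promoters of the same length, 300 bases, held it. The arrangement bound by VDR with its partner RXR is a direct repeat of such sites with a spacer of 3 bases. Its exact form, with AGGTCA in both places, was in 0 of the 7 promoters and in 0.00609% of all promoters. An exact match is so rare that 0 of 7 tells little, and looser repeats or sites outside these windows were not searched. AGAACA was found 1 time, in Trpv6, against 19% of all promoters with a match, and TATAAA 1 time, in S100g, against 13.6%. GC boxes numbered 4 and 3 at the Atp2b1 starts, 3 of the first 4 overlapping each other, and 3 at Vdr, against 35.7% of all promoters with a match. GC content was 41% in the S100g promoter, 51.3% in Trpv6 and 79.3% in Atp2b1 start 1, with a median of 52.7% over all promoters. Matched letters describe these windows and do not show that a factor binds there.

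CORT exposure was visible in each tissue through Fkbp5, a glucocorticoid receptor target that encodes a co-chaperone of the receptor. On the log2(TPM + 1) scale it was higher in CORT by 4.30 (SE 0.34, limma adjusted p = 0.00450) in duodenum and by 4.23 (SE 0.32, limma adjusted p = 0.00178) in liver. Tsc22d3, also known to respond to glucocorticoids, was higher by 2.01 (SE 0.25, limma adjusted p = 0.0185) in duodenum. In liver its Veh and CORT libraries did not overlap and it was higher by 1.92 (SE 0.49), but it did not pass (limma adjusted p = 0.0623). The tissues carried their own markers: Alb, the hepatocyte albumin gene, was at most 0.39 TPM in any duodenal library and at least 32823 TPM in any liver library, and the ileal genes Fabp6 and Slc10a2 were at most 0.73 TPM in the duodenal libraries. Of 13 genes of absorptive enterocytes, 0 passed the test in duodenum, with a median log2 fold change of 0.08. Their summed level was 35184 to 51804 TPM in Veh and 61045 to 70703 TPM in CORT; the abundant lipid genes Fabp1, Fabp2, Apoa1 and Apoa4 had log2 fold changes of 0.76 to 1.07 and the other 9, among them Vil1 and Alpi, of -0.49 to 0.61. The part of these markers in the levels of the 7 genes was not tested. A list of 20 genes of pancreatic acinar cells separated the duodenal libraries: its summed level was 203 TPM in Veh1, 38757 TPM in Veh2 and 31268 TPM in Veh3, and 158 to 361 TPM in CORT. The most abundant of them by mean level were Ctrb1, Cela2a and Prss2, and all 3 were below 1 TPM in every CORT library. Since the samples are bulk tissue, fewer cells of a type and less RNA per cell cannot be told apart for any gene here.

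The question for the 7 genes was whether 8 weeks of CORT changed the transcripts of duodenal calcium absorption and its vitamin D control. Of the 7 genes, 5 reached a mean of 1 TPM in either group and were tested, with 0 called by limma, where a call needed a fold over 1.5 and an adjusted p no higher than 0.05, and 0 at an unadjusted p with the same limits. Over all 13607 genes tested, 2.15% were called, 1.23% higher and 0.919% lower, and 10.3% at the unadjusted p. Among the 5 genes, Veh and CORT levels were fully apart for 1, Trpv6, which was lower in CORT, against 26.4% of all genes tested in either direction and 14.3% lower in CORT. The median log2 fold change of the 5 was -0.69, against -0.01 for all genes tested. Trpv6, at a mean of 1.80 TPM in Veh and 0 in CORT, and Cyp2r1, at 1.10 and 0.85 TPM, were tested only through their Veh means. A gene kept in that way tends to be lower in CORT, so the separation of Trpv6 and this median are partly set by the filter.

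**Figure D1:**
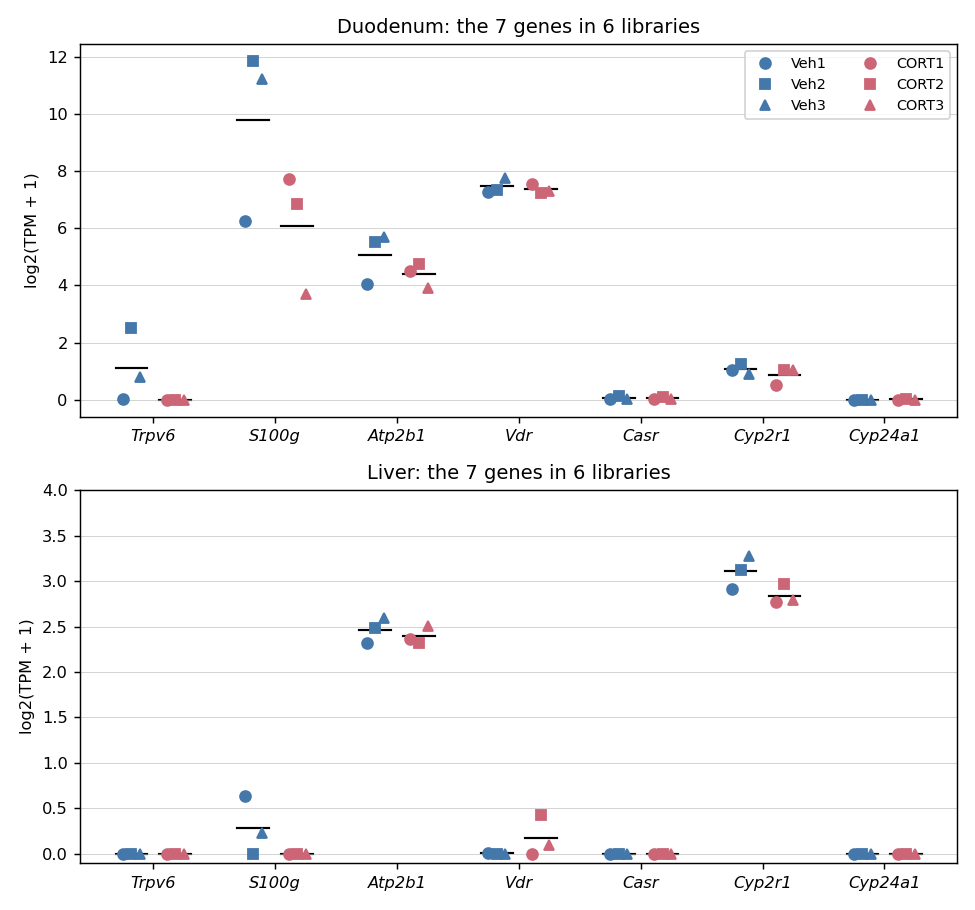
Level of each of the 7 genes, as log2(TPM + 1), in the 6 duodenal libraries (upper) and the 6 liver libraries (lower); points are libraries, shapes give the replicate number, black lines are group means, and the vertical scales differ. In duodenum S100g ran from 11.96 TPM in CORT3 to 3723 TPM in Veh2, while Vdr stayed between 150 and 216 TPM; in liver only Cyp2r1 and Atp2b1 reached 1 TPM.

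Trpv6 (ENSMUSG00000029868), the entry channel, was scarce in every library. In duodenum it stood at 0.02 TPM in Veh1, 4.67 TPM in Veh2 and 0.72 TPM in Veh3, and was listed at 0 in CORT1, CORT2 and CORT3. All 3 Veh libraries were thus above all 3 CORT libraries, but Veh1 by 0.02 TPM only. The difference did not pass (limma adjusted p = 0.361), and no fold is given because the CORT group is listed at 0. Without Veh2 the gene fell below the level needed for testing. Trpv6 is also known from exocrine pancreas, and the 2 libraries in which it exceeded 0.02 TPM, Veh2 and Veh3, were those with the high acinar sum. Whether acinar RNA had a part in its level was not tested.

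S100g (ENSMUSG00000040808), the cytosolic carrier, had the widest range of the 7 genes on the log2(TPM + 1) scale. Its duodenal level was 75.79 TPM in Veh1, 3723 TPM in Veh2 and 2428 TPM in Veh3. CORT1 had 212 TPM, CORT2 116 TPM and CORT3 11.96 TPM. Veh2 and Veh3 stood far above the rest, and Veh1 lay below CORT1 and CORT2, so the groups overlapped. Within Veh the highest library was 49.1-fold above the lowest, within CORT 17.8-fold, and over all 6 libraries 311-fold. On the log2(TPM + 1) scale the CORT mean was lower by 3.69, written as a log2 fold change of -3.69 (SE 1.63, 95% interval -7.55 to 0.17), and did not pass (limma adjusted p = 0.278). The interval holds both no difference and a log2 fold change of -7.55, which these 6 libraries cannot tell apart.

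The estimate for S100g moved with the libraries used, in each group. With 1 CORT library left out the log2 fold change was -4.51 without CORT1 (limma adjusted p = 0.258), -4.07 without CORT2 (limma adjusted p = 0.391) and -2.49 without CORT3 (limma adjusted p = 0.476). Leaving out Veh2 or Veh3 gave -2.65 (limma adjusted p = 0.529) and -2.96 (limma adjusted p = 0.519). Without Veh1 it was -5.45 (limma adjusted p = 0.0837), and without Veh2 and Veh3 together, which leaves Veh1 as the only Veh library and assumes that it varies like the CORT libraries, it was -0.16 (limma adjusted p = 0.978). With the 20 acinar genes taken out and the remaining values rescaled, it was -3.72 (limma adjusted p = 0.267). These genes held at most 3.89% of the TPM of a duodenal library, so the rescaling could move S100g only little. It takes out no S100g RNA that came from acinar cells, and the part of such RNA was not tested.

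Atp2b1 (ENSMUSG00000019943), the basolateral exit pump, followed a similar library order over a smaller range. The Veh libraries held 15.72, 44.43 and 50.33 TPM in the order of their numbers, against 21.68 TPM in CORT1, 26.13 TPM in CORT2 and 14.12 TPM in CORT3. Veh2 and Veh3 were again the highest, and Veh1 lay below CORT1 and CORT2. The log2 fold change was -0.69 (SE 0.44, 95% interval -1.74 to 0.36) and did not pass (limma adjusted p = 0.438). Its sign was not stable: without Veh2 and Veh3 it was 0.33 (limma adjusted p = 0.791), and without Veh1 it was -1.20 (limma adjusted p = 0.0929).

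Vdr (ENSMUSG00000022479), the receptor, was abundant and even. The Veh libraries had 155, 163 and 216 TPM and the CORT libraries 186, 150 and 159 TPM. The groups overlapped throughout, and the highest Veh library was 1.40-fold above the lowest. The log2 fold change was -0.10 (SE 0.17, 95% interval -0.50 to 0.30, limma adjusted p = 0.777), and the whole interval lay within 1 of 0 on the log2 scale. S100g and Vdr thus differed in how much they varied between the same 6 libraries, with a range of 311-fold for the carrier and 1.45-fold for the receptor.

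The remaining genes were low in duodenum. Cyp2r1 (ENSMUSG00000030670), the vitamin D 25-hydroxylase, was at 1.05, 1.38 and 0.88 TPM in Veh and at 0.42, 1.05 and 1.08 TPM in CORT, with overlapping groups and a log2 fold change of -0.20 (SE 0.24, 95% interval -0.76 to 0.36, limma adjusted p = 0.673). Cyp24a1 (ENSMUSG00000038567) was listed at 0 in 5 of the 6 libraries and at 0.02 TPM in CORT2. Casr (ENSMUSG00000051980) was between 0.01 and 0.09 TPM. Neither Cyp24a1 nor Casr was tested, and no direction can be read from such levels.

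Ordered by TPM within the duodenal libraries, Vdr, Atp2b1 and Cyp2r1 were separated: the lowest Vdr library, at 150 TPM, was above the highest Atp2b1 library, at 50.33 TPM, and the lowest Atp2b1 library, at 14.12 TPM, was above the highest Cyp2r1 library, at 1.38 TPM. S100g had no fixed place. It exceeded Vdr in Veh2, Veh3 and CORT1, lay between Vdr and Atp2b1 in Veh1 and CORT2, and was below Atp2b1 in CORT3. Trpv6 was above Cyp2r1 in Veh2 and below it in the other 5 libraries, and Casr and Cyp24a1 stayed below 0.1 TPM.

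Genes whose log2(TPM + 1) levels followed those of S100g most closely over the 6 duodenal libraries were Slc30a10, an exporter of manganese, Slc40a1, the iron exporter ferroportin, and Ppic, a peptidyl-prolyl isomerase, with Pearson's r of 0.993, 0.987 and 0.987. Atp2b1 was at rank 23 of 13607 genes by this measure, with r = 0.949. These are descriptions over 6 libraries that share tissue and treatment groups. Slc40a1, basolateral like PMCA1, had 11.84 TPM in Veh1, 263 TPM in Veh2 and 302 TPM in Veh3, while the CORT libraries had 56.03, 23.6 and 3.22 TPM. S100g and Slc30a10 ranked the libraries in the same order, Veh2, Veh3, CORT1, CORT2, Veh1 and CORT3, from high to low.

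Pdx1, a transcription factor of the proximal duodenum and of pancreas, gave that same order. Its level was 13.41 TPM in Veh1, 41.87 TPM in Veh2 and 40.57 TPM in Veh3. The CORT libraries had 32.38, 23.93 and 8.13 TPM in the order of their numbers. CORT1 was above Veh1 for S100g and Pdx1, while their acinar sums were 158 and 203 TPM. The other proximal markers were even, Gata4 between 78.6 and 113 TPM and Onecut2 between 3.19 and 5.47 TPM, and 0 of the 3 proximal markers passed the test; their summed level was 129 to 153 TPM in Veh and 108 to 130 TPM in CORT. Cubn, the receptor cubilin that takes up vitamin B12 and the vitamin D binding protein and is richest in distal intestine, ran nearly the other way, at 12.2, 1.85 and 3.83 TPM in Veh and 6.32, 4.61 and 19.34 TPM in CORT; it was singled out after its values were seen. What part the sampled stretch of duodenum or the acinar RNA had in the levels of S100g and Atp2b1 was not tested.

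**Figure D2:**
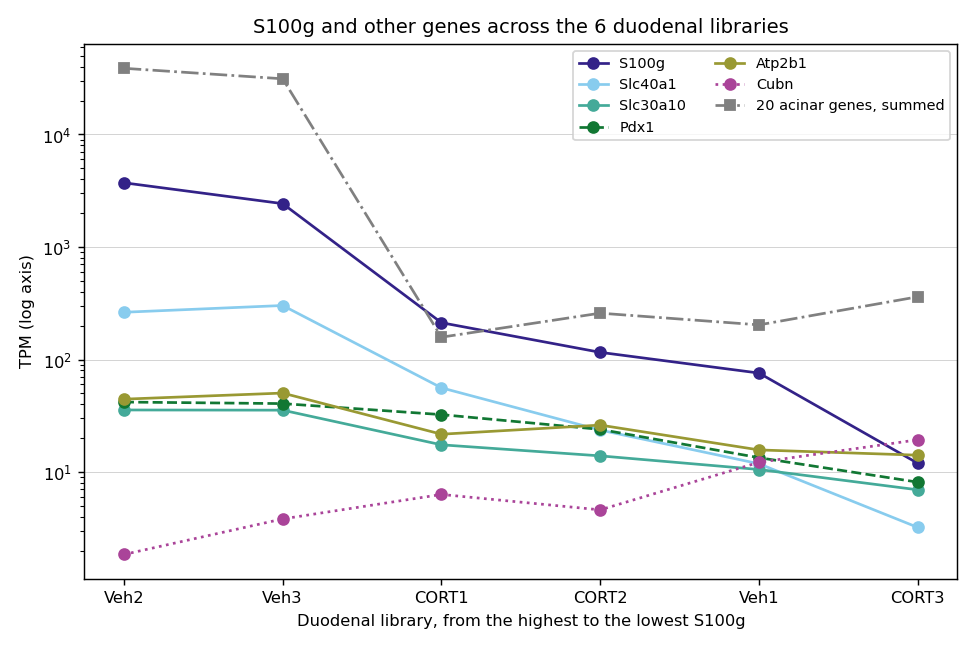
Level in TPM (log axis) of S100g, Atp2b1, Slc40a1, Slc30a10, Pdx1 and Cubn, and the summed TPM of 20 acinar genes, in each duodenal library, with libraries ordered by S100g; each point is 1 library. S100g, Slc30a10 and Pdx1 fall from Veh2 to CORT3 in the same order, Veh1 sits between CORT2 and CORT3, and the acinar sum is high in Veh2 and Veh3 only, at 38757 and 31268 TPM.

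For Trpv6 the closest genes were the predicted gene Gm10334, Slc16a12, a monocarboxylate transporter family member, and Reg2, a regenerating gene of pancreas, with r of 1.00, 0.991 and 0.989. Reg2 was at 0.14, 24.55 and 3.53 TPM in Veh and at most 0.27 TPM in CORT, so this likeness was set mainly by Veh2. For Atp2b1 they were Cyth4, Itgb2 and Pde4a (r of 0.991, 0.987 and 0.986), of which Itgb2 encodes an integrin chain of leukocytes. A list of 5 leukocyte genes, all tested and 0 called, summed to 43.59, 67.85 and 65.68 TPM in Veh and 36.44, 69.75 and 41.23 TPM in CORT; its part in the level of Atp2b1 was not tested. For Vdr the closest were Atrnl1, Sidt1 and Limch1 (r of 0.982, 0.981 and 0.971), and for duodenal Cyp2r1 Limk1, Pirt and Clmp (r of 0.994, 0.993 and 0.990).

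Liver was read for the enzyme CYP2R1, whose first hydroxylation of vitamin D takes place mostly there. Veh1, Veh2 and Veh3 had 6.52, 7.74 and 8.72 TPM of Cyp2r1, and CORT1, CORT2 and CORT3 had 5.80, 6.83 and 5.91 TPM. The CORT libraries were in the lower part of the range, and CORT2 overlapped with Veh1. The log2 fold change was -0.27 (SE 0.15, 95% interval -0.61 to 0.08) and did not pass (limma adjusted p = 0.297). The other tested gene, Atp2b1, was at 3.98 to 5.04 TPM in Veh and 3.99 to 4.68 TPM in CORT, with a log2 fold change of -0.07 (95% interval -0.40 to 0.26, limma adjusted p = 0.795). Hence 2 of the 7 genes were tested in liver, with 0 called and 0 at an unadjusted p of 0.05 or less, against 6.92% of 11699 genes called, 4.91% higher and 2.01% lower, and 15.5% at the unadjusted p. Veh and CORT levels overlapped for both, while they were apart for 32.2% of all genes tested, 20.6% higher in CORT. Of the 810 genes called, 575 were higher and 235 lower, and with median-ratio scaling 543 and 468 of 1011, where Cyp2r1 had a log2 fold change of -0.35 (limma adjusted p = 0.161).

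Trpv6, Cyp24a1 and Casr were listed at 0 in all 6 liver libraries. Vdr was at most 0.34 TPM there, in CORT2, and S100g at most 0.55 TPM, in Veh1. The genes closest to hepatic Cyp2r1 over the 6 liver libraries were Cbx2, 2210418O10Rik and Zfp277, with r of 0.993, 0.992 and 0.991.

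The response of each gene was compared between tissues by the treatment by tissue term of a limma fit over all 12 libraries. The fit took the 12 libraries as independent. The labels do not say whether a liver and a duodenal library came from the same mouse, so its p-values leave any such pairing out. None of the 5 genes with the term tested was called, against 3.6% of 14806 genes. The duodenal minus hepatic difference in log2 fold change was -3.40 for S100g (limma adjusted p = 0.362), -0.62 for Atp2b1 (limma adjusted p = 0.569), -0.27 for Vdr (limma adjusted p = 0.576) and 0.07 for Cyp2r1 (limma adjusted p = 0.922), and the adjusted p for Trpv6 was 0.407. Leaving out duodenal Veh1 took S100g past the threshold (-5.17, limma adjusted p = 0.0465), with hepatic S100g near 0. In duodenum alone the same omission did not pass (limma adjusted p = 0.0837). Liver libraries near 0 lend little spread to the error of this term.

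Around the 7 genes, 6 lists of 79 other genes of vitamin D handling, calcium, phosphate and magnesium transport, calcium hormones, intracellular calcium stores and reported VDR targets were read. In duodenum 52 of the 79 were tested and 3 were called higher and 2 lower, against 1.23% and 0.919% of all genes tested, with a median log2 fold change of 0.00. With the acinar genes removed and the values rescaled, 3 were called higher and 5 lower. In liver 45 of the 79 were tested and 6 were called higher and 1 lower, or 6 and 2 with median-ratio scaling, against 4.91% and 2.01% of all genes tested, with a median of 0.17 against 0.08 for all genes tested.

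Genes of vitamin D handling held both the highest and the lowest log2 fold change among the 52 genes in duodenum, Cyp27a1 and Dhcr7. Cyp27a1, a mitochondrial sterol 27-hydroxylase that also 25-hydroxylates vitamin D, was at 45.3, 21.28 and 29.19 TPM in duodenal Veh and at 154, 133 and 228 TPM in CORT. Every CORT library was above every Veh library, and the log2 fold change was 2.42 (SE 0.31, limma adjusted p = 0.0189). Without Veh3 and without CORT1 it did not pass (limma adjusted p = 0.0783 and 0.0599). In liver it was at 240, 220 and 284 TPM in Veh and at 514, 419 and 472 TPM in CORT, again without overlap, with a log2 fold change of 0.92 (SE 0.15, limma adjusted p = 0.0182), which did not pass without Veh1 or without CORT1 (limma adjusted p = 0.0618 and 0.0792).

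Cyp3a11, a drug and steroid hydroxylase that can also break down vitamin D metabolites and is listed as a VDR target, rose in each tissue. Duodenal Veh libraries had 329, 412 and 544 TPM and CORT libraries 1953, 2674 and 1850 TPM. The log2 fold change was 2.34 (SE 0.23, limma adjusted p = 0.00789) in duodenum and 1.59 (SE 0.19, limma adjusted p = 0.00693) in liver, where Veh libraries had 648, 883 and 794 TPM and CORT libraries 2874, 2033 and 2111 TPM. It kept its call in each tissue with any 1 library left out, while without duodenal Veh2 and Veh3 together, which leaves 1 Veh library, its log2 fold change was 2.69 (limma adjusted p = 0.126) and that of Cyp27a1 1.86 (limma adjusted p = 0.240). Cyp3a11 belongs to a family of near-identical genes whose reads can be split between copies, so the share of each copy is uncertain. Dhcr7, which turns the vitamin D precursor 7-dehydrocholesterol into cholesterol, was at 41.19, 31.43 and 28.68 TPM in duodenal Veh and at 16.39, 14.08 and 19.15 TPM in CORT, lower by a log2 fold change of -0.98 (SE 0.18, limma adjusted p = 0.0469), a call lost with any 1 library left out (limma adjusted p = 0.0798 to 0.120). In liver its log2 fold change was -0.65 and did not pass (limma adjusted p = 0.0555).

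**Figure D3:**
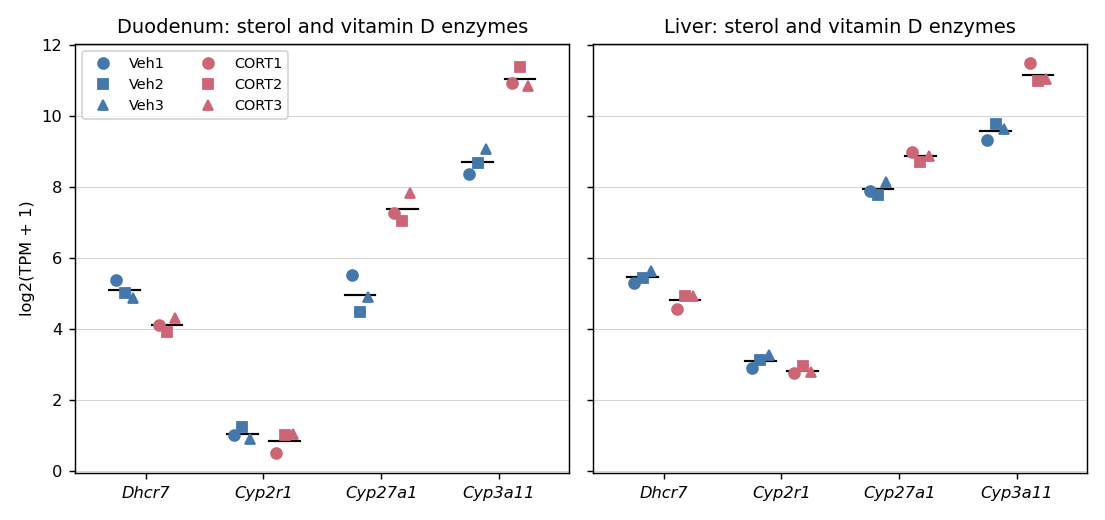
Level, as log2(TPM + 1), of Dhcr7, Cyp2r1, Cyp27a1 and Cyp3a11 in the 6 duodenal libraries (left) and the 6 liver libraries (right); points are libraries, shapes give the replicate number and black lines are group means. CORT and Veh points are apart for Dhcr7, Cyp27a1 and Cyp3a11 in each tissue and overlap for Cyp2r1.

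Cyp27a1, Cyp3a11 and Dhcr7 passed in duodenum while Cyp2r1 did not, and whether these genes differ in response was not tested. The partners of VDR were even in duodenum: Rxra, its heterodimer partner, ran from 40.51 to 53.37 TPM, the corepressor gene Ncor1 from 33.35 to 45.95 TPM and Pdia3, a proposed membrane calcitriol receptor, from 183 to 277 TPM. Cyp27b1, which makes calcitriol, was at most 0.06 TPM in any library. In liver Med1, a coactivator subunit of nuclear receptors, was called higher (log2 fold change 0.75, SE 0.14, limma adjusted p = 0.0288), a call kept without Veh2 and lost without any other 1 library (limma adjusted p = 0.0335 to 0.104). Gc, the plasma vitamin D binding protein, ran from 4414 to 5439 TPM with a log2 fold change of 0.11 (limma adjusted p = 0.657).

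Of 9 tested genes for other calcium transport in duodenum, 0 were called. Cldn15, a claudin of cation-permeable tight junctions, was at 501, 389 and 406 TPM in Veh and at 290, 243 and 315 TPM in CORT, without overlap, and did not pass (log2 fold change -0.61, limma adjusted p = 0.109). Trpv5, the renal relative of Trpv6, was listed at 0 in every duodenal library.

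Slc30a10, listed as a VDR target, had a duodenal log2 fold change of -0.94 (SE 0.51, limma adjusted p = 0.370) with the library order of S100g, and 0.17 without Veh2 and Veh3. In liver it was called higher, at 6.34, 4.59 and 4.50 TPM in Veh and 8.27, 9.23 and 8.70 TPM in CORT (log2 fold change 0.68, SE 0.15, limma adjusted p = 0.0468), a call lost without any 1 library but Veh1 (limma adjusted p up to 0.152). Among 5 tested VDR targets of this list, 1 was called higher in duodenum, Cyp3a11, and 2 in liver, Cyp3a11 and Slc30a10, against 1.23% and 4.91% of all genes tested called higher. Whether VDR had a part in these calls was not tested.

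Genes of intracellular calcium stores gave 1 call in each direction in each tissue. In duodenum Atp2c2, a calcium and manganese pump of the secretory pathway, was at 3.43, 2.83 and 4.14 TPM in Veh and 13.81, 8.81 and 8.15 TPM in CORT (log2 fold change 1.31, SE 0.22, limma adjusted p = 0.0372). Orai2, a store-operated calcium channel, was at 5.42, 4.90 and 5.30 TPM in Veh and 2.30, 2.61 and 2.33 TPM in CORT (log2 fold change -0.86, SE 0.13, limma adjusted p = 0.0305). Both calls were lost with any 1 library left out (limma adjusted p = 0.0685 to 0.115 and 0.0604 to 0.131). In liver Itpr1, an inositol trisphosphate receptor, was higher (log2 fold change 1.19, SE 0.21, limma adjusted p = 0.0232) and Micu2, a gatekeeper of the mitochondrial calcium uniporter, lower (log2 fold change -0.97, SE 0.19, limma adjusted p = 0.0339). Itpr1 lost its call without Veh3, CORT1 or CORT3, and Micu2 without any 1 library but Veh2 (limma adjusted p up to 0.0856 and 0.0965).

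Of the phosphate and magnesium transporters, 0 of 11 tested passed in duodenum, and in liver Cnnm2, a membrane protein of magnesium handling, was called higher, at 2.97, 3.15 and 2.66 TPM in Veh and 7.40, 6.54 and 9.19 TPM in CORT (log2 fold change 1.14, SE 0.16, limma adjusted p = 0.0101), also with any 1 library left out. Of 10 calcium hormones and sensors, 2 were tested in duodenum and 1 in liver, with 0 called, and Pth, Calcr and Fgf23 were listed at 0 in every duodenal library.

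**Figure D4:**
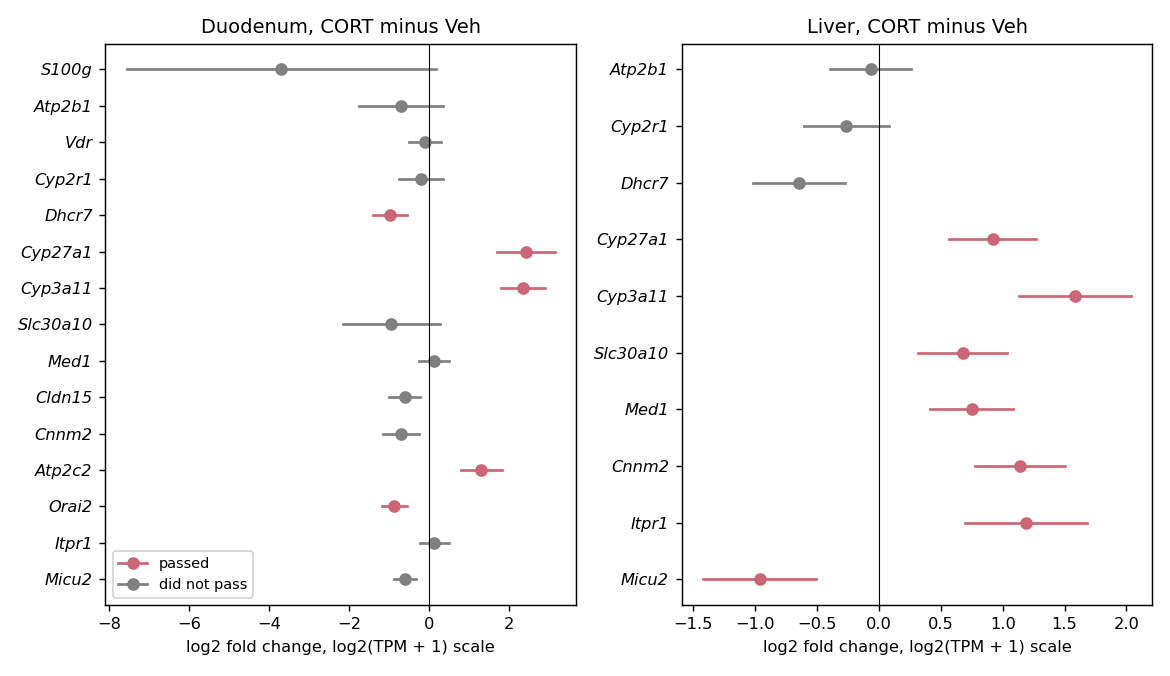
Log2 fold change (CORT minus Veh, log2(TPM + 1) scale) with its 95% interval from limma, n = 3 libraries per group, in duodenum (left) and liver (right). Shown where tested are the members except Trpv6, the listed genes called in either tissue, and Cldn15. The horizontal scales differ. The intervals of S100g, Atp2b1, Vdr and Cyp2r1 reach across 0, with S100g the widest at -7.55 to 0.17, and Cyp27a1 and Cyp3a11 lie above 0 in each tissue.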

How the data were processed

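Expression in liver and duodenum of CORT- and vehicle-treated mice (3 libraries per group) was read from 2 deposited tables of TPM per gene and library. Per the labels and methods, the authors trimmed the reads, aligned them with HISAT2 to GRCm39 and used StringTie and RSEM for TPM, with 1 column per library; versions are not given in the sources used here. TPM keeps no depth, so precision comes from the spread between 3 libraries. Groups came from the sample labels.

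Values were taken to log2(TPM + 1). A gene was tested in a tissue if its Veh or its CORT mean reached 1 TPM, which left 13607 genes in duodenum and 11699 in liver. Separate fits per tissue were made with limma 3.58.1 (R 4.3.3; eBayes with a trend), with no term besides treatment. All adjusted p-values are limma's, by the Benjamini-Hochberg method over all genes tested, and a call needed 0.05 or less and a fold over 1.5. Fold changes on this scale understate those of low genes. The tissues were compared by an interaction term over all 12 libraries.

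The 7 genes, the lists of other pathway and marker genes, and the tests were chosen with earlier results of these data known. The text names all 7 genes, called genes of the lists and up to 3 uncalled genes per list with the highest level. It also names the genes closest to each member by Pearson's r, Fkbp5, Tsc22d3 and the 3 most abundant acinar genes. Others are background checks, and not every gene the rule selects is described. Alternatives were a pseudocount of 0.1, no filter, a filter at 0.5 TPM, the replicate number as a block, median-ratio scaling, no limit on the fold, unadjusted p-values, each library left out, acinar genes removed, and duodenal Veh2 and Veh3 left out.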

Additional observations from a re-analysis of the deposited data

Results flagged for a closer look

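The treatment by tissue term was called for 0 of the 5 tested genes of the main 7 and for 4 of 60 genes tested when the pathway lists are added, against 3.6% of all 14806 genes. The difference is the duodenal minus the hepatic log2 fold change, and each p given is limma's adjusted p. Cnnm2 had a difference of -1.84 (limma adjusted p = 0.00289), with every CORT library below every Veh library in duodenum (-0.70) and above in liver (1.14), and it passed with any 1 library left out. For Cyp27a1 the difference was 1.5 (limma adjusted p = 0.0493), higher in CORT in each tissue and further in duodenum; among 12 fits with 1 library removed it passed only without duodenal Veh1 (limma adjusted p = 0.0130) and without duodenal CORT2 (limma adjusted p = 0.0479), with limma adjusted p up to 0.111 in the others. Atp2c2 had a difference of 1.31 (limma adjusted p = 0.0218) and was listed at 0 in every liver library, so its term is its duodenal change; it was lost without duodenal Veh2 (limma adjusted p = 0.0520), hepatic Veh3 (limma adjusted p = 0.0515) and hepatic CORT1 (limma adjusted p = 0.0545). Orai2 had a difference of -0.82 (limma adjusted p = 0.0274), with at most 0.34 TPM in liver, and was lost in 6 of 12 such fits, without duodenal Veh3 or CORT3 or hepatic Veh1, Veh3, CORT1 or CORT2 (limma adjusted p up to 0.0706). In duodenum alone Atp2c2 and Orai2 each lost their call with any 1 library left out. Their low liver libraries lend little spread to the error of this term.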

How the results depend on the processing

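The count of the 7 genes called stayed at 0 in each tissue under every alternative run. Trpv6 without Veh2, and without Veh2 and Veh3, and Cyp2r1 without Veh2, could not be fitted in duodenum because they fell below the filter. Within a tissue, Veh and CORT libraries of equal replicate number shared little of their deviations from the group means. These correlated at 0.05, 0.07 and -0.0039 in duodenum and 0.04, -0.0084 and -0.12 in liver. Pairing of liver with duodenal libraries was not checked. With the number as a replicate block, the genes called went from 292 to 62 in duodenum and from 810 to 307 in liver. The pathway genes called went from 5 to 2 and from 7 to 1, and the 7 genes stayed at 0. Without a filter on low values the counts were 52 and 283 genes, and 1 and 3 pathway genes. At unadjusted p they were 1395 and 1808 genes, and 10 (3 higher, 7 lower) and 11 pathway genes. With the acinar genes removed 8 pathway genes were called in duodenum, 3 higher and 5 lower. Without Veh2 and Veh3, which leaves 1 Veh library, 10 genes and 0 pathway genes were called, while the 5 pathway genes kept log2 fold changes of -1.28 (Dhcr7), 1.86 (Cyp27a1), 2.69 (Cyp3a11), 1.31 (Atp2c2) and -0.91 (Orai2). Leaving out 1 library gave 66 to 237 genes and 1 to 2 pathway genes in duodenum, 247 to 831 and 2 to 7 in liver, and 0 to 1 of the 7 genes for the difference between tissues, the 1 being S100g without duodenal Veh1.

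Some differences that had not passed changed sign. Without Veh2 and Veh3 the duodenal log2 fold change was 0.087 for Vdr, 0.33 for Atp2b1, 0.17 for Slc30a10, -0.49 for Cubn and -0.067 for Rxra. Rxra was -0.024 with acinar genes removed and -0.080 to 0.13 with 1 library left out, and Vdr -0.19 to 0.047. The tissue difference of Cyp2r1 was -0.11 with a pseudocount of 0.1 and -0.030 to 0.25 with 1 library left out. For all of these the cause was not tested, and the limit on every result is 3 libraries per group of unknown depth.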

Other observations

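Among the marker genes read beside the 7 genes, Clec4f, a lectin of Kupffer cells, was called in duodenum, at 0.05, 0.15 and 0 TPM in Veh and 10.29, 5.31 and 7.42 TPM in CORT (log2 fold change 2.99, limma adjusted p = 0.00450). The other genes of that list did not accompany it: Adgre1, a general macrophage gene, had a log2 fold change of -0.17, and Vsig4 was listed at 0 in every duodenal library. Ins2, an insulin gene of pancreatic islets, was at 0, 4.97 and 25.39 TPM in duodenal Veh and listed at 0 in every CORT library, and it did not pass (limma adjusted p = 0.266). Ins1 had the same pattern at a lower level, at 0, 0.39 and 2.54 TPM in Veh and 0 in every CORT library, and was not tested. Ppy was also listed at 0 in every CORT library, but it was at 0.55 TPM in Veh1 too and did not pass (limma adjusted p = 0.101). Gcg and Iapp did not follow Ins2, with log2 fold changes of 0.53 and 0.14. The sum of the 5 genes was 22.07, 23.81 and 41.09 TPM in Veh and 15.66, 23.3 and 34.16 TPM in CORT.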
